A study of Mus musculus with 11 samples.

Results

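The GTPases of immunity-associated proteins, or GIMAP family, are a group of guanine nucleotide binding proteins made chiefly in lymphocytes. The 8 protein-coding mouse members (Gimap1, Gimap3, Gimap4, Gimap5, Gimap6, Gimap7, Gimap8 and Gimap9) were chosen by name, and all 8 were found among the 55414 genes of the deposited table. All 8 also passed the filter on low counts, which kept 22238 genes for testing. The cells were CD8+ T cells of OT-I mice, whose transgenic T cell receptor recognises a peptide of ovalbumin, and every group carried this genotype. At 12 h, the naive group (n = 4) had received no treatment, the stimulated group (n = 4) had received DMSO and the peptide N4, and the Torin group (n = 3) had received Torin, an inhibitor of the kinase mTOR, together with N4. Libraries are named by group and by the number in their label, and the Torin group has numbers 1, 3 and 4. No label ties the libraries to separate mice or gives an age or a Torin dose, and each p-value therefore reflects the spread among these libraries alone.

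GIMAP proteins share a GTPase fold with septins and are held on intracellular membranes such as those of the lysosome, the endoplasmic reticulum and lipid droplets. In mice, the genes are neighbours in a single cluster. Several members are known for keeping resting lymphocytes alive: loss of Gimap1 or Gimap5 depletes mature peripheral T cells.

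The members lie on chromosome 6 in the order Gimap8, Gimap9, Gimap4, Gimap6, Gimap7, Gimap1, Gimap5 and Gimap3, with 6 on the plus strand and 2 (Gimap6 and Gimap3) on the minus strand. The start-site sequences of 3 members are shown because these genes gave the largest fall on stimulation (Gimap4), no detected fall (Gimap5) and the largest difference between the Torin and stimulated groups (Gimap6). Each is the 250 bases before the RefSeq start site on GRCm38.p6, which is not the mm39 build of the count tables, written 5′ to 3′ on the strand of the gene. They lie at chr6:48684328-48684577 (plus, Gimap4), chr6:48745947-48746196 (plus, Gimap5) and chr6:48708245-48708494 (minus, Gimap6). Capitals mark matches, on either strand, to the core letters of factor families known in T cells.
Gimap4: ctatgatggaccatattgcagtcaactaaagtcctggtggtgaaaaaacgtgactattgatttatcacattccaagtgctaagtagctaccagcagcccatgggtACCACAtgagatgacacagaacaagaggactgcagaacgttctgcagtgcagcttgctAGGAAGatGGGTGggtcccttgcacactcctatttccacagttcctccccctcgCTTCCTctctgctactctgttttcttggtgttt
Gimap5: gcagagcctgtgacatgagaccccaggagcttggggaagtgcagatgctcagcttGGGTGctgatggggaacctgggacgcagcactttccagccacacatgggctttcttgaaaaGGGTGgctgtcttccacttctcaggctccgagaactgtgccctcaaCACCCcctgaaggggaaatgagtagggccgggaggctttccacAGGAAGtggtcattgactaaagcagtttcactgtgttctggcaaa
Gimap6: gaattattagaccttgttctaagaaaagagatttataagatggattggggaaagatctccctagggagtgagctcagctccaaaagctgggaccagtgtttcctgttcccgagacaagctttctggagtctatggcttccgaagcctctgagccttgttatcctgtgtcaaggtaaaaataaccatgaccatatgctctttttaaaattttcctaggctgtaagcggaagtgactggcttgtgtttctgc

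The ETS letters AGGAAG were found before the start sites of 7 of the 8 genes, all except Gimap6. Of the 32851 promoter windows of the same length in the genome table, 29.5% held them. The RUNX core TGTGGT was found in 3 genes (Gimap1, Gimap4 and Gimap7), against 14.0% of all windows. The FOXO core TAAACA occurred in 1 gene (Gimap3), against 12.0%, and the KLF core CACCC in 5 genes, against 52.0%. The Ikaros core TGGGAA and the TCF/LEF core CTTTGA occurred in none of the 8 genes, against 21.6% and 13.8% of all windows. Gimap4, with the largest fall, and Gimap5, with none detected, both held ETS and KLF letters. The RUNX letters were in the first and not in the second. In the Gimap6 window none of the 6 motifs was found, but it holds CGGAAG, which differs from AGGAAG in its first letter only. Only the exact letters were searched, so other forms of these sites are not counted. These matches describe letters in a window and were not tested against the expression values.

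Stimulation for 12 h was accompanied by a fall of most of the family. Of the 8 members, 7 fell past the threshold of an adjusted p of 0.05 in the stimulated against the naive group, by 2.66-fold to 6.96-fold, and Gimap5 was the exception. Over all 22238 genes tested, 20.2% were lower by the same test. All 7 had stimulated libraries entirely below the naive libraries, a pattern held by 21.7% of all tested genes. The median log2 change of the 8 members was -1.59, and that of all tested genes -0.22. Levels are given as CPM, the count of a gene scaled to the size of its library with TMM factors, and tests are edgeR quasi-likelihood tests with Benjamini-Hochberg adjustment over all genes tested.

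**Figure D1:**
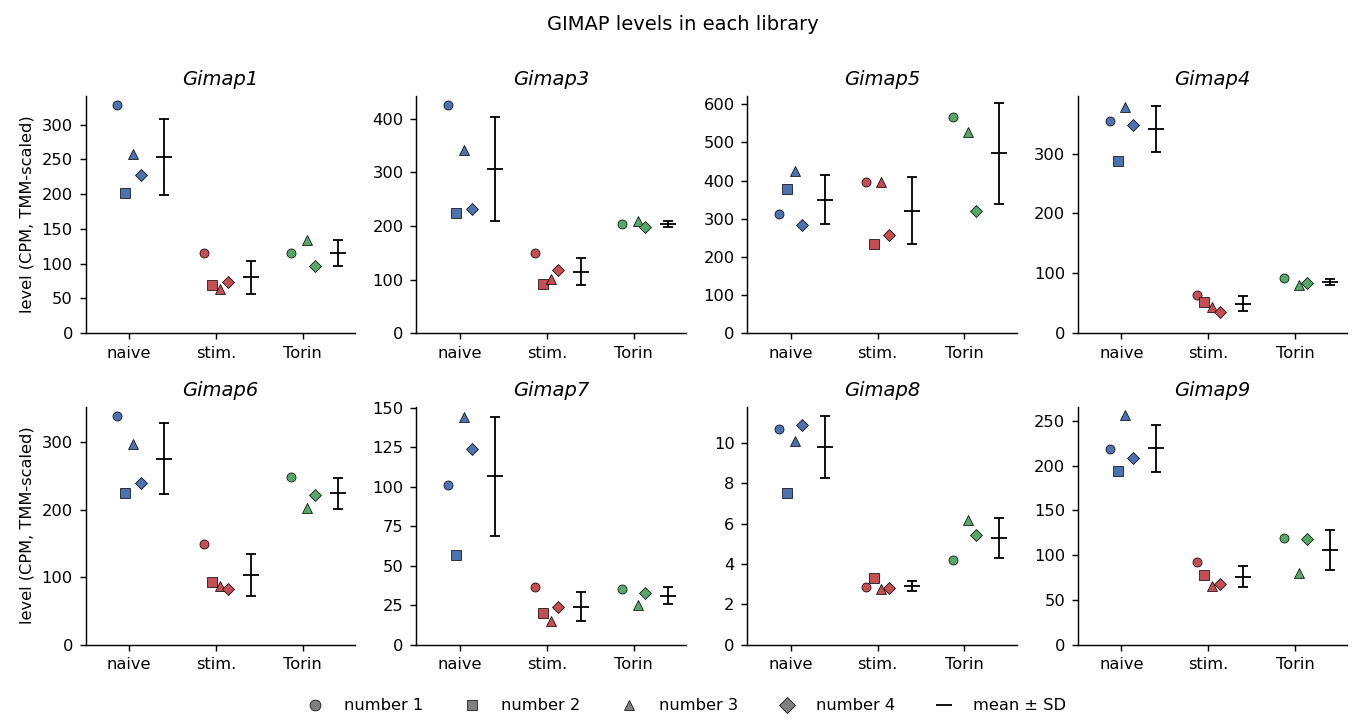
Level of each GIMAP gene (vertical axis, TMM-scaled CPM, linear and starting at 0) in the naive, stimulated and Torin libraries, with symbols for the library number and bars for the mean ± SD. In 7 panels every stimulated library lies below every naive library, and in the Gimap5 panel the 3 groups overlap.

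Gimap1 (ENSMUSG00000090019.6), needed for the survival of mature T and B cells in mice, stood at 328, 201, 257 and 228 CPM in naive 1 to 4. It stood at 115, 69.1, 64.1 and 73.8 CPM in stimulated 1 to 4, so that the highest stimulated library was well below the lowest naive one. The log2 change was -1.65 (SE 0.22, edgeR adjusted p = 0.000164).

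Gimap3 (ENSMUSG00000039264.10), a close relative of Gimap5, had 426, 225, 341 and 232 CPM in the 4 naive libraries and 149, 91.7, 102 and 117 CPM in the 4 stimulated ones, both in order of number. Library naive 1 was the highest and the groups did not overlap. This was a log2 change of -1.41 (SE 0.22, edgeR adjusted p = 0.000486).

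Gimap5 (ENSMUSG00000043505.9), a lysosomal member whose loss causes severe lymphopenia in rodents, stood at 312, 379, 425 and 285 CPM in naive 1 to 4. In stimulated 1 to 4 it stood at 396, 234, 397 and 258 CPM, with stimulated 1 and 3 inside the naive range and stimulated 2 and 4 below it. The log2 change was -0.13 (SE 0.24, edgeR adjusted p = 0.715). Between libraries of the same number the sign was not uniform, with a rise of 0.34 on the log2 scale for number 1 and differences of -0.69, -0.10 and -0.15 for numbers 2 to 4. Whether Gimap5 responded differently from its relatives was not tested.

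Gimap4 (ENSMUSG00000054435.17), which speeds the death of T cells, gave the largest fall. It stood at 354, 287, 377 and 347 CPM in naive 1 to 4 and at 64.6, 52.3, 43.7 and 35.8 CPM in stimulated 1 to 4, a wide gap between the groups. Its log2 change was -2.80 (SE 0.19, edgeR adjusted p = 6.72e-06), or 6.96-fold.

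Gimap6 (ENSMUSG00000047867.12), a partner of the autophagy protein GABARAPL2, stood at 339, 225, 297 and 240 CPM in naive 1 to 4 and at 149, 92.1, 87.1 and 81.8 CPM in stimulated 1 to 4. Stimulated 1 was well above the other 3 stimulated libraries but still below all naive ones. Gimap6 thus had a log2 change of -1.43 (SE 0.21, edgeR adjusted p = 0.000318).

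Gimap7 (ENSMUSG00000043931.11), a GTPase that becomes active on pairing with another GTPase, varied widely between naive libraries. It stood at 101, 56.8, 144 and 124 CPM in naive 1 to 4 and at 36.6, 19.9, 15.1 and 23.9 CPM in stimulated 1 to 4, with no overlap. This gave a log2 change of -2.16 (SE 0.33, edgeR adjusted p = 0.000352).

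Gimap8 (ENSMUSG00000064262.8), the long member with repeated GTPase domains, was the least abundant. It stood at 10.7, 7.52, 10.1 and 10.9 CPM in naive 1 to 4 and at 2.86, 3.28, 2.74 and 2.79 CPM in stimulated 1 to 4, where the libraries lay close together. Its log2 change was -1.75 (SE 0.19, edgeR adjusted p = 4.12e-05).

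Gimap9 (ENSMUSG00000051124.7) stood at 219, 194, 256 and 208 CPM in naive 1 to 4 and at 91.9, 77.4, 65.7 and 67.9 CPM in stimulated 1 to 4. The groups did not overlap. Gimap9 thus had a log2 change of -1.53 (SE 0.17, edgeR adjusted p = 5.11e-05).

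The count of 7 lower members was the same in all 21 alternative analyses, including each left-out library, the replicate number as a block, and fits without the libraries of number 4 or of number 2. Under library totals alone, the median of all genes moved from -0.22 to -0.71 and the share of called genes that were higher moved from 48.7% to 28.5%. The member changes moved with it, Gimap5 to -0.61 (edgeR adjusted p = 0.0572) and Gimap4 to -3.27.

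The libraries also differed in marker genes. T cell markers were present throughout, with Cd3e between 190 and 615 CPM and Cd8a between 91.0 and 270 CPM, and Cd4 was at most 0.0288 CPM. The 7 CD4 and regulatory T cell markers, which include Cd4, summed to between 26.6 and 75.3 CPM in the naive libraries. The sums were 202 to 325 CPM in the stimulated and 196 to 268 CPM in the Torin libraries. Of 6 tested, 2 rose and 0 fell on stimulation, where 19.2% of all tested genes were higher. Il2ra rose most, from 8.17 ± 8.25 to 194 ± 20.6 CPM, a large part of the stimulated sums. The summed level of the 12 T cell identity genes lay between 5895 and 7525 CPM in the naive, 2970 and 3716 CPM in the stimulated and 4922 and 4932 CPM in the Torin libraries, the same order as for most members. Of these 12 genes, 7 fell and 2 rose on stimulation, where 20.2% of all tested genes were lower and 19.2% higher. Their median log2 change was -0.84, against -0.22 for all genes. In such bulk samples, fewer T cells and less of a transcript per cell cannot be told apart.

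Markers of other cells were found too. The 12 monocyte and macrophage markers summed to between 1113 and 3129 CPM in the naive, 140 and 341 CPM in the stimulated and 53.9 and 81.0 CPM in the Torin libraries. Ly6c2 of this list stood at 217 ± 79.2 CPM in the stimulated and 49.7 ± 14.5 CPM in the Torin group, most of those sums. The 12 B cell markers summed to 47399, 14394 and 13246 CPM in the naive, stimulated and Torin libraries of number 4, almost all of it Igkc, and to at most 370 CPM elsewhere. The 12 granulocyte markers reached a sum of 8608 CPM for naive 2 and of 2071 for stimulated 2, with at most 178 CPM elsewhere. The 8 stromal and endothelial markers summed to between 20.0 and 25.6 CPM in the naive, 2.0 and 7.47 CPM in the stimulated and 3.4 and 4.49 CPM in the Torin libraries. The 12 markers of NK and innate-like T cells reached 2939 CPM for naive 2 and at most 928 CPM elsewhere. Fcer1g of this list stood at 594 ± 830 CPM in the naive group. Ncr1 stood at only 1.41 CPM in naive 2 and 3.08 CPM in naive 4. Summed dendritic cell markers lay between 464 and 1933, 671 and 1158, and 402 and 721 CPM in the naive, stimulated and Torin libraries. Platelet and erythroid markers lay between 282 and 929, 149 and 468, and 152 and 338 CPM. Both sums overlapped between groups. Of the 12 dendritic cell markers, 4 fell on stimulation (median log2 change -1.51), where 20.2% of all tested genes were lower. Only Bst2 rose, from 218 ± 62.1 to 515 ± 120 CPM, a large part of the stimulated sums. The part of these cells in the GIMAP differences was not tested. The count of lower members was 7 in the fit without the libraries of number 4 and in the fit without those of number 2. Both fits keep the group differences in the T cell, monocyte and macrophage, and stromal sums, so they cannot separate the part of these cells.

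With Torin present during stimulation, all 8 members had a positive log2 change against the stimulated group, and 3 rose past the threshold: Gimap6, Gimap8 and Gimap4. By the same test, 2.32% of all tested genes were higher. For 4 members (Gimap3, Gimap4, Gimap6 and Gimap8) every Torin library lay above every stimulated library, against 9.56% of all tested genes. The median log2 change of the 8 members was 0.68, and that of all tested genes -0.02. These 3 calls come from the fit without the replicate number as a block, and with that block only Gimap6 passed. They were also sensitive to single libraries, as given below.

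Gimap6 showed the largest difference. It stood at 248, 202 and 222 CPM in Torin 1, 3 and 4, each above the 149 CPM of the highest stimulated library. The log2 change was 1.13 (SE 0.22, edgeR adjusted p = 0.0218), or 2.19-fold, and the fit blocked by number gave an adjusted p of 0.0146. The call was lost without Torin 1 (adjusted p = 0.0844), Torin 3 (0.0772), stimulated 2 (0.0616) or stimulated 4 (0.0595), although the log2 change stayed between 1.01 and 1.37 in all alternatives.

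Gimap4 stood at 91.8, 81.2 and 84.6 CPM in Torin 1, 3 and 4, a narrow spread above all 4 stimulated libraries. Its log2 change was 0.81 (SE 0.19, edgeR adjusted p = 0.0383), and the blocked fit gave an adjusted p of 0.0550. The call was also lost on leaving out any Torin library, stimulated 2, 3 or 4, or naive 3, with edgeR adjusted p-values between 0.0517 and 0.132. Fits with no filter (0.0557), with the prefix of the library descriptions as a term (0.0574) and with only the 2 groups compared (0.0523) fell short as well.

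Gimap8 stood at 4.22, 6.17 and 5.43 CPM in Torin 1, 3 and 4, above the 2.74 to 3.28 CPM of the stimulated libraries. This gave a log2 change of 0.85 (SE 0.20, edgeR adjusted p = 0.0367), and the blocked fit gave an adjusted p of 0.0893. Leaving out any Torin or stimulated library, or naive 3, also lost the call, with edgeR adjusted p-values between 0.0539 and 0.177. It was lost too with no filter (0.0711), the prefix term (0.0858) and only the 2 groups compared (0.0541). Without the libraries of number 4, or of number 2, none of the 3 members passed the threshold.

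Gimap3 stood at 203, 210 and 198 CPM in Torin 1, 3 and 4, with an SD of 6.26 CPM, and did not overlap with the stimulated group. Its log2 change of 0.83 (SE 0.24) missed the threshold with an edgeR adjusted p of 0.0770. It passed by DESeq2 (adjusted p = 0.0118), in edgeR with a mean CPM of at least 5 (0.0287), with only the stimulated and Torin libraries fitted (0.0347) and without naive 1 (0.0440).

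Gimap5 stood at 567, 528 and 321 CPM in Torin 1, 3 and 4, and Torin 4 lay inside the stimulated range. The log2 change was 0.55 (edgeR adjusted p = 0.257). Gimap1 stood at 115, 134 and 96.2 CPM in Torin 1, 3 and 4, overlapping stimulated 1, with a log2 change of 0.51 (edgeR adjusted p = 0.250). Gimap9 stood at 119, 80.0 and 118 CPM, with 1 library inside the stimulated range, and changed by 0.48 (edgeR adjusted p = 0.168). Gimap7 stood at 35.2, 24.7 and 32.5 CPM, all inside the stimulated range, and changed by 0.37 (edgeR adjusted p = 0.615).

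Within numbers 1, 3 and 4, 6 members were higher in the Torin than in the stimulated library of the same number every time. The share of all tested genes with this pattern was not counted, so the 6 is a description only. Gimap1 was level (0.00 on the log2 scale) and Gimap7 slightly lower (-0.05) for number 1. Under library totals alone, the median of all genes moved from -0.02 to 0.11 and the share of called genes that were higher from 50.1% to 67.6%. The same 3 members were called under that scaling.

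**Figure D2:**
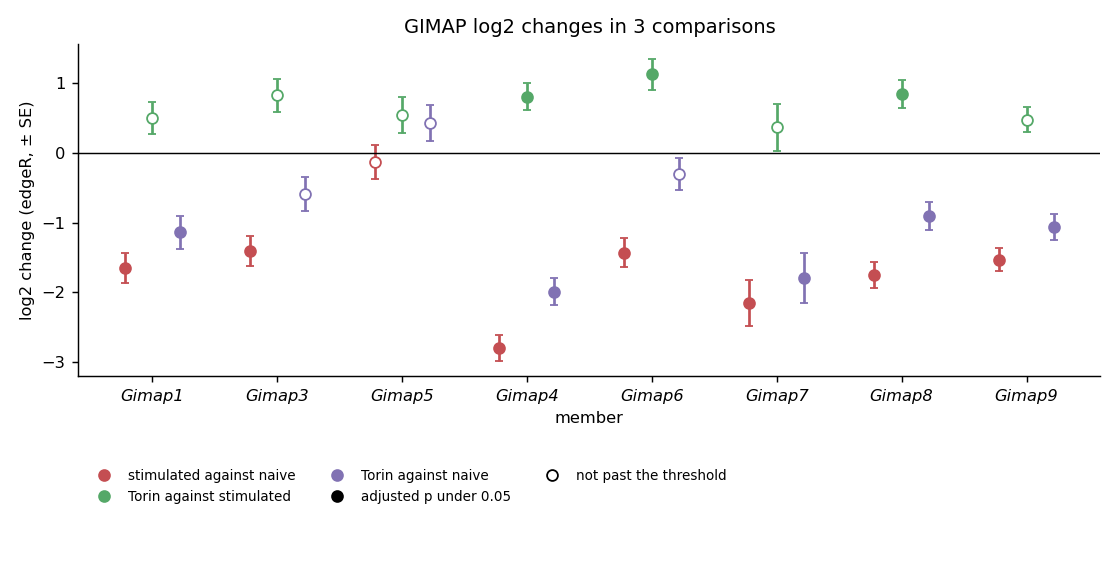
Log2 change of each GIMAP gene (vertical axis, edgeR estimate ± SE) in the stimulated against naive, Torin against stimulated and Torin against naive comparisons, with filled points for an adjusted p under 0.05. The Torin against stimulated points all lie above 0 but are filled only for Gimap4, Gimap6 and Gimap8, and Gimap5 has no filled point. The fit shown has no replicate block, and with the block only Gimap6 passed in that comparison.

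Against the naive group, 5 members remained lower with Torin (Gimap1, Gimap4, Gimap7, Gimap8 and Gimap9), when 15.8% of all tested genes were lower. These 5 and Gimap3 had all Torin libraries below all naive libraries, against 22.4% of tested genes. The median log2 change of the 8 members was -0.98, and that of all tested genes -0.18. This comparison shares its libraries with both comparisons above, so the 3 sets of values are given side by side and are not independent. Gimap4 had the largest difference from naive, with a log2 change of -1.99 (SE 0.20, edgeR adjusted p = 7.22e-05). Gimap7 followed with -1.79 (SE 0.36, edgeR adjusted p = 0.00306), Gimap1 with -1.14 (adjusted p = 0.00428), Gimap9 with -1.06 (adjusted p = 0.00147) and Gimap8 with -0.90 (adjusted p = 0.00600). Gimap6 differed by -0.30 (SE 0.23, edgeR adjusted p = 0.356) and Gimap3 by -0.59 (SE 0.24, adjusted p = 0.0875). Gimap5 was the one member with a positive value, 0.43 (SE 0.26, edgeR adjusted p = 0.233), which rose to 0.75 (adjusted p = 0.0431) without Torin 4. Under library totals alone, the share of called genes that were higher moved from 50.9% to 33.4%. Gimap3 then also passed the threshold (edgeR adjusted p = 0.0379), as it did in 6 further alternatives. Without the libraries of number 4, Gimap1 (adjusted p = 0.0604) and Gimap8 (0.0955) lost the call.

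The distance covered with Torin differed along the family. Expressed as a share of the log2 distance from the stimulated to the naive mean, Gimap6 reached 79.2%, Gimap3 58.6% and Gimap8 48.8%. Gimap9, Gimap1 and Gimap4 reached 31.2%, 31.1% and 28.9%, and Gimap7 17.1%. No share is given for Gimap5, whose naive and stimulated means did not differ past the threshold. These shares are descriptions of the group means, and differences between members were not tested.

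The summed level of the 8 genes was 1862 ± 276 CPM (SD, n = 4) in the naive, 771 ± 167 CPM (n = 4) in the stimulated and 1242 ± 154 CPM (n = 3) in the Torin group. Without Gimap5 the sum of the other 7 was 1512 ± 267, 449 ± 107 and 771 ± 40.9 CPM. The makeup of the family message changed with these levels. Gimap5 supplied 19.0 ± 3.98% of the sum in the naive, 41.5 ± 6.46% in the stimulated and 37.5 ± 6.69% in the Torin group. Its share lay between 14.9% and 24.1% in the naive libraries and between 36.6% and 51.0% in the stimulated ones, with no overlap. These shares count noncoding forms too, and only 23.0 ± 7.08% of the Gimap5 count in the stimulated group was assigned to its coding transcript. Gimap4 went the other way, from 18.4 ± 1.59% in the naive to 6.41 ± 1.25% in the stimulated and 6.97 ± 0.776% in the Torin group. Gimap6 supplied 14.7 ± 0.992%, 13.2 ± 1.70% and 18.2 ± 2.35%.

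**Figure D3:**
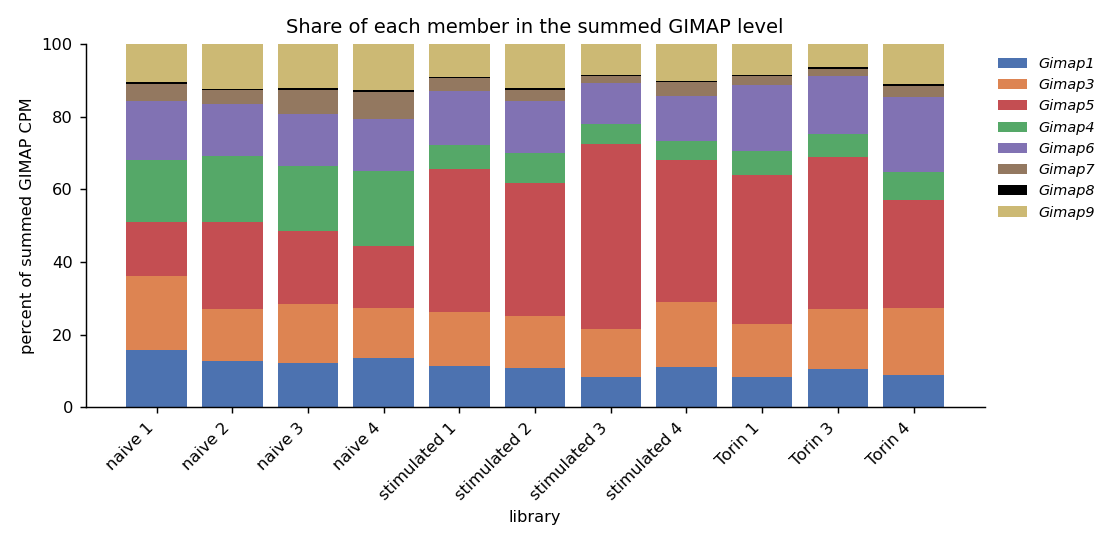
Percent of the summed GIMAP CPM that each member supplied (vertical axis) in each of the 11 libraries. The Gimap5 segment covers 14.9% to 24.1% in the naive libraries and 36.6% to 51.0% in the stimulated libraries, and the Gimap4 segment shrinks. Coding and noncoding forms are both counted.

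Levels per length, in CPM per kb of all exon bases of a gene, gave the order of the members within a group. In the naive group Gimap4 was highest at 186 ± 21.0 CPM per kb, followed by Gimap9 (134 ± 16.2), Gimap3 (119 ± 37.2), Gimap5 (84.4 ± 15.3), Gimap1 (82.4 ± 17.8) and Gimap6 (78.8 ± 15.0). The lowest Gimap4 and the highest Gimap9 library were level at 156 CPM per kb. From Gimap9 to Gimap1, each overlapped with the next in order. Gimap7 (45.8 ± 16.1) and Gimap8 (2.65 ± 0.426) lay apart below them. In the stimulated group Gimap5 was highest at 77.4 ± 21.0 CPM per kb, with all of its libraries above those of the next member, Gimap9 (46.1 ± 7.27). Gimap4 had moved from the first to the fifth place, at 26.7 ± 6.72 CPM per kb, where it overlapped with Gimap6 above it and Gimap1 below it. In the Torin group Gimap5 (114 ± 31.9) and Gimap3 (79.1 ± 2.43) led and overlapped, and Gimap6 (64.1 ± 6.67) shared its range with Gimap9 (64.3 ± 13.5). Gimap8 was lowest in every group, at 1.43 ± 0.267 CPM per kb with Torin. Part of this order depended on the length used. Per kb of the longest transcript, Gimap1 rose to 157 CPM per kb in the naive group, level with Gimap9 at 158, and Gimap7 rose to 84.0, level with Gimap6 at 86.7. In the stimulated group Gimap5 led at 138 CPM per kb by that length too, and Gimap4, at 27.2, came after both Gimap1 (49.9) and Gimap6 (32.2). Gimap4 was highest in the naive group (189 CPM per kb) and Gimap8 lowest in each group by both lengths.

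Over the 11 libraries, log2 CPM of the 7 members other than Gimap5 correlated with each other at r of 0.80 to 0.98 (median 0.90 of 21 pairs). The 7 pairs with Gimap5 gave r of -0.01 to 0.40 (median 0.08). These points share libraries and group structure, so the values are descriptions. By the likeness rule, 6490 genes were compared with the mean standardised profile of the family, and 141 passed an r of 0.95. The nearest were Btbd2 and Ing4, a chromatin reader of methylated histone H3 (both 0.991), Pink1, a kinase of mitochondrial quality control, and Sfxn3, a mitochondrial serine transporter (both 0.989). They were followed by Actn1, an actin crosslinker (0.986), Kctd2 (0.985), Fbxl12, a substrate receptor of a ubiquitin ligase, and Faah, a fatty acid amide hydrolase (both 0.984). The members themselves gave lower values with this profile, from 0.915 (Gimap7) to 0.967 (Gimap1), and 0.295 for Gimap5.

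Pink1 stood at 109 ± 27.1, 12.7 ± 5.63 and 35.0 ± 4.74 CPM in the naive, stimulated and Torin groups. Ing4 stood at 51.1 ± 8.98, 13.2 ± 4.27 and 28.7 ± 3.25 CPM. Of the 8 genes, 5 rose with Torin against the stimulated group, where 2.32% of all tested genes were higher. Sfxn3 rose most, by 1.82 on the log2 scale (SE 0.36, edgeR adjusted p = 0.0213). The profile that chose these genes already holds the group differences, so these calls are not independent of the choice.

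Transcript counts separated coding from noncoding forms, and the transcript names and types are those of GENCODE M21. Gimap5 has 1 coding transcript, Gimap5-201, which held 25.9 ± 6.37% of the gene's count in the naive, 23.0 ± 7.08% in the stimulated and 18.9 ± 2.88% in the Torin group. Its level was 88.8 ± 16.8, 71.5 ± 25.8 and 86.5 ± 13.4 CPM, with a log2 change of -0.24 (SE 0.24, edgeR over 54864 transcripts, adjusted p = 0.541) on stimulation. Most of Gimap5 was assigned to 2 noncoding forms. Gimap5-202 went from 47.1 ± 6.94% of the gene in the naive to 32.3 ± 2.86% in the stimulated group, and Gimap5-203 from 24.0 ± 1.72% to 40.6 ± 5.41%. The Gimap5-203 share lay between 21.5% and 25.5% in naive and between 37.2% and 48.6% in stimulated libraries. The level of Gimap5-203 rose in the Torin against the naive group by 1.28 (SE 0.30, edgeR adjusted p = 0.0198), where 7.35% of all tested transcripts were higher. On stimulation it changed by 0.70 (SE 0.28, adjusted p = 0.115).

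The coding forms of Gimap1 fell more than the gene total in group means. Its 3 coding transcripts summed to 160, 35.6, 125 and 85.9 CPM in the naive libraries 1 to 4 and to 7.92, 10.2, 10.8 and 5.26 CPM in stimulated 1 to 4. In Torin 1, 3 and 4 they summed to 20.6, 42.5 and 16.0 CPM, between the other groups except for an overlap with naive 2. The coding share was 38.3 ± 14.7%, 11.4 ± 5.18% and 22.1 ± 8.38%. Gimap1-201 fell on stimulation by 4.37 on the log2 scale (SE 0.78, edgeR adjusted p = 0.00307) and the retained-intron form Gimap1-204 by 1.01 (SE 0.21, adjusted p = 0.00776), where 9.03% of all tested transcripts were lower. Gimap1-204 held 59.9 ± 14.8% of the gene in the naive and 85.4 ± 5.31% in the stimulated group. The difference between both forms was not tested. Gimap1 shares 36.0% of its exon bases with the antisense gene Gimap1os, so counts of these forms may include reads of that gene.

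**Figure D4:**
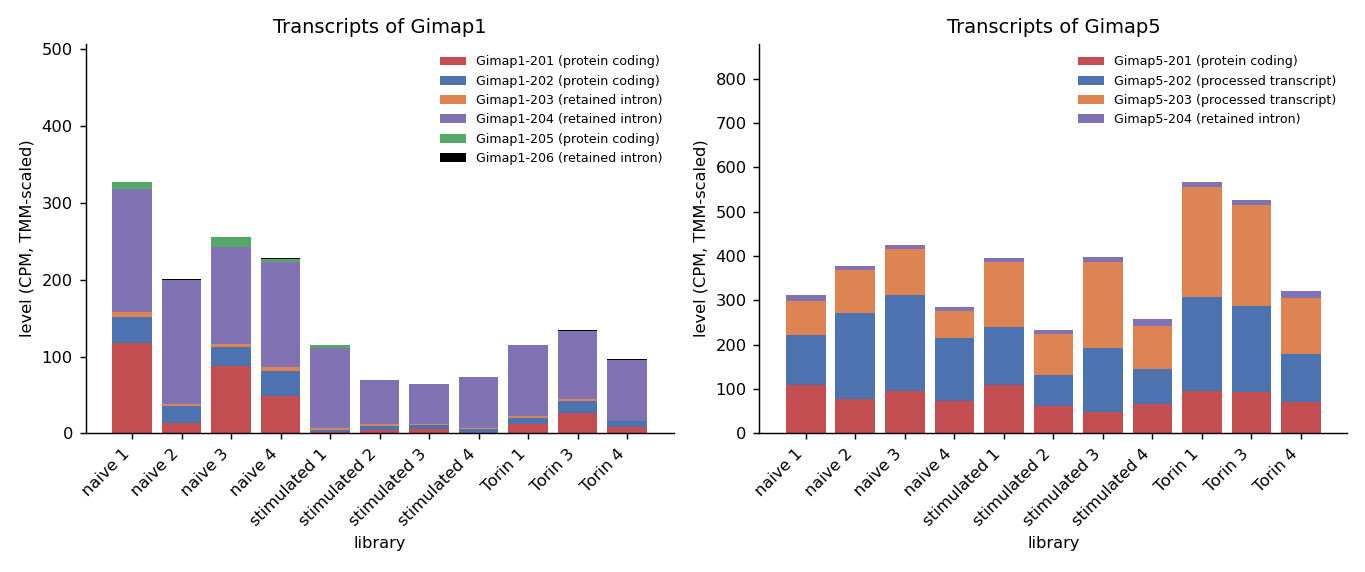
Level of each annotated transcript of Gimap1 and Gimap5 (stacked, vertical axis, TMM-scaled CPM) in each library. The coding Gimap1 forms nearly vanish in the stimulated libraries, and the Gimap5-203 segment takes a larger share of the Gimap5 stack in the stimulated and Torin libraries than in the naive ones.

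Gimap4 was read form by form as well. All 6 Gimap4 transcripts, 5 coding and 1 annotated for nonsense-mediated decay, fell on stimulation, where 9.03% of all tested transcripts were lower. All 6 stayed lower with Torin against naive, where 5.71% of all tested transcripts were lower. The decay form held 29.8 ± 3.08%, 27.3 ± 6.84% and 20.1 ± 3.16% of the gene in the naive, stimulated and Torin groups. Nearly all of Gimap3 (at least 99.0% in every library) was the coding form Gimap3-202, and at least 99.8% of Gimap6 was coding. Gimap8-201 held 83.6 ± 4.90% of Gimap8 in the naive, 58.1 ± 16.5% in the stimulated and 78.8 ± 1.02% in the Torin group, at levels of 8.18 ± 1.17, 1.72 ± 0.619 and 4.16 ± 0.828 CPM. In the Torin against stimulated comparison no transcript of the 8 members passed the threshold, where 0.224% of all tested transcripts were higher. Gimap6-201 came nearest, with a log2 change of 1.08 (SE 0.21, edgeR adjusted p = 0.0586).

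Some counts may be shared between genes. Gimap3 and Gimap5 have 190 identical 50-base windows, 7.52% of those in Gimap3 and 4.53% of those in Gimap5, and the other 6 members share none. The antisense gene Gimap1os covers 36.0% of the exon bases of Gimap1, and the labels do not state whether counting used the strand, so reads in the shared exon bases cannot be told apart. Gimap1os itself stood at 81.1 ± 21.5, 43.6 ± 10.1 and 51.2 ± 3.73 CPM and fell on stimulation by 0.90 on the log2 scale (SE 0.21, edgeR adjusted p = 0.00626).

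The genes on either side of the cluster were read for comparison, 5 on each side in RefSeq order. On stimulation, 20.2% of all tested genes were lower. Zfp775, the nearest before it, fell on stimulation from 3.73 ± 0.643 to 1.15 ± 0.547 CPM (log2 change -1.70, edgeR adjusted p = 0.00668). Tmem176b, the nearest after it and an ion channel gene of intracellular membranes, fell from 126 ± 42.9 to 17.9 ± 7.12 CPM (-2.81, edgeR adjusted p = 0.00116). Its neighbour Tmem176a fell from 80.7 ± 34.0 to 8.28 ± 5.72 CPM (-3.28, edgeR adjusted p = 0.00407). Lrrc61 fell from 8.07 ± 2.90 to 3.19 ± 0.790 CPM (-1.34, edgeR adjusted p = 0.00458). The other 6 (Rarres2, Gm5111, Repin1, Gm7932, Aoc1 and Doxl1) reached at most 3.51 CPM in any library. None of them passed the threshold on stimulation, and Doxl1, at 0 throughout, was not tested. No tested neighbour passed the threshold in the Torin against stimulated comparison, where 2.32% of all tested genes were higher and 2.3% lower. With Torin, Tmem176b stood at 14.8 ± 13.4 CPM and Tmem176a at 9.33 ± 9.90 CPM.

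Genes tied to GIMAP function in earlier work, and genes of the resting T cell state, were read from lists. Of 14 reported partners and survival genes, 7 fell and 3 rose on stimulation (median log2 change -0.60), where 20.2% of all tested genes were lower and 19.2% higher. Bcl2l1, which encodes the death inhibitor Bcl-xL, rose from 8.30 ± 2.79 to 48.6 ± 2.7 CPM (2.55, edgeR adjusted p = 1.1e-05). Map1lc3a, an autophagosome protein, fell from 31.5 ± 3.35 to 5.37 ± 2.74 CPM (-2.55, edgeR adjusted p = 0.000141). With Torin against stimulated, 2 rose and 1 fell, where 2.32% of all tested genes were higher and 2.3% lower. Bcl2l11, which encodes the death activator Bim, rose from 10.1 ± 2.85 to 34.7 ± 9.79 CPM (1.78, edgeR adjusted p = 0.0149), and Bax, which permeabilises mitochondria, fell from 2390 ± 335 to 1160 ± 269 CPM (-1.04, adjusted p = 0.0236). Against naive, 3 of the 14 rose and 3 fell with Torin, where 16.4% of all tested genes were higher and 15.8% lower.

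Of 20 naive and quiescence genes, 15 fell and none rose on stimulation, with a median log2 change of -2.47, where 20.2% of all tested genes were lower and 19.2% higher. Ccr9, a chemokine receptor, fell most, from 8.98 ± 3.80 to 0.219 ± 0.128 CPM (-5.36, edgeR adjusted p = 0.00135). With Torin against stimulated, 4 of the 20 rose and none fell, where 2.32% of all tested genes were higher and 2.3% lower. They were led by Ccr7, the lymph node homing receptor, which rose from 416 ± 153 to 1285 ± 136 CPM (1.63, edgeR adjusted p = 0.00751). Against naive, 14 fell and 2 rose with Torin, where 15.8% of all tested genes were lower and 16.4% higher. Ccr7 rose most here too, from 352 ± 52.2 CPM in the naive to 1285 ± 136 CPM in the Torin group (1.87, edgeR adjusted p = 0.000258). S1pr1, the receptor for leaving lymph nodes, was at 195 ± 47.9 CPM in the naive and 1.04 ± 0.208 CPM in the Torin group (-7.56, edgeR adjusted p = 0.000761), whereas Gimap6 was at 275 ± 52.5 and 224 ± 23.3 CPM.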

How the data were processed

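Members and gene lists were chosen with earlier results of these data known. The authors deposited estimated counts per gene and per transcript, whole numbers with totals per library of 241865667 to 405884097, which exceed usual read numbers, so no counting interval is given and errors are those between libraries. Per the submitters' processing notes, reads were handled on mm39, with StringTie 2.1.0, STAR 2.7.1a, DESeq2 1.30.1, SAMtools 1.9 and R 4.0.5 named and no roles given. Per the labels' protocols, the library kit was SMARTer ultra-low poly(A). The stimulated columns of the gene table are headed Control, and were matched as the group not otherwise named.

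Symbols, exon lengths and transcript types came from GENCODE M21, matched by identifier without version (52081 genes, 94.0%). Promoter sequences (all 8 members matched) and gene order came from RefSeq on GRCm38.p6. Protein sequences were not used here.

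The test was the quasi-likelihood F test of edgeR 4.0.16 (R 4.3.3) with TMM factors, 1 model of group means over 11 libraries and filterByExpr at a minimum count of 10. The common biological coefficient of variation was 0.79, and the adjusted p threshold 0.05. The SE is the absolute log2 change over the square root of F. The script was tested on simulated data. Log2 CPM used a prior count of 2.

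All 8 members were named in every comparison. Also named were 5 neighbours on each side and the 8 genes most like the family profile with at least 10 CPM in a group. From the lists, the largest rise and fall past the threshold were named in part, not for every list and comparison. The transcripts described, and the marker genes Cd3e, Cd8a, Cd4, Igkc and Ncr1, were chosen after their values were seen, as were the transcript tests.

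Deviations from group means correlated between libraries of the same number above 0.1 for each stimulated and naive pair (0.16, 0.23, 0.15 and 0.29) and each Torin and stimulated pair (0.11, 0.15 and 0.31), so the numbers were read as pairing there. For Torin and naive they gave 0.08, 0.13 and 0.28. Alternatives were the replicate block, DESeq2 1.42.0, RLE factors, library totals alone, a mean CPM of at least 5, no filter, the prefix of the descriptions as a term, a fit to only the groups compared, and fits without each library or without the libraries of number 4 or 2.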

Additional observations from a re-analysis of the deposited data

Results flagged for a closer look

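In 34 groups of 4 libraries that were looked at, 2 held a library far from the others, and chance gives about 1 in 20. Gimap6 stood at 149 CPM in stimulated 1, while the other stimulated libraries lay between 81.8 and 92.1 CPM. The coding share of Gimap5 was 12.4% in stimulated 3, while the other stimulated libraries lay between 25.8% and 27.4%.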

How the results depend on the processing

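Of the alternative values for member changes on stimulation, 167 kept direction and call and 1 reversed: Gimap5 gave 0.04 (edgeR adjusted p = 0.931) without the libraries of number 2. In the Torin against stimulated comparison, 131 kept both, 33 lost the call and 4 gained it, and none changed sign. The 1027 genes called there became 2740 with DESeq2, 656 with no filter, 675 with the description prefix as a term, 55 without the libraries of number 4, 338 without those of number 2, and 144 to 1058 on leaving out 1 library (Torin 3 gave 144, Torin 1 gave 261, stimulated 4 gave 441, stimulated 2 gave 463, Torin 4 gave 541). The 3 higher members became 1 with no filter, 1 with the prefix, 0 without number 4, 0 without number 2, and 0 to 4 on leaving out 1 library. With the replicate block, 1 member was higher in that comparison (Gimap6). In the Torin against naive comparison, where the number did not pair every library, the block added Gimap3 (edgeR adjusted p = 0.0236), and it changed no call of a member on stimulation. There, 5 lower members became 3 without number 4 and stayed at 5 to 6 on leaving out 1 library, and the count of higher members ranged from 0 to 1. The summed naive level was 2266 CPM with library totals alone. The cause of these shifts was not tested, and leaving libraries out also leaves fewer samples.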

Other observations

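Other GTPase families were read beside GIMAP. Of 17 interferon-inducible GTPases of the guanylate-binding and immunity-related groups, which act in defence against intracellular microbes, 8 fell and 1 rose on stimulation (median log2 change -0.76, edgeR at an adjusted p of 0.05, where 20.2% of all tested genes were lower and 19.2% higher). Gbp9 fell most, from 7.14 ± 0.671 to 0.841 ± 0.447 CPM (-3.08, edgeR adjusted p = 0.00037), and Iigp1 rose from 2.98 ± 0.847 to 9.90 ± 6.11 CPM (1.74, adjusted p = 0.00743). With Torin against stimulated, none of the 17 passed the threshold in either direction and the median was -0.33. Against naive, 9 were lower with Torin, where 15.8% of all tested genes were lower.

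Septins are cytoskeletal GTPases that form filaments. Of 11 tested, 3 fell and 2 rose on stimulation, shares near those of all tested genes (20.2% lower and 19.2% higher). Sept1 fell from 296 ± 42.8 to 86.5 ± 19.2 CPM (-1.77, edgeR adjusted p = 3.39e-05) and Sept11 rose from 9.95 ± 2.89 to 42.8 ± 1.98 CPM (2.11, adjusted p = 2.19e-05). With Torin against stimulated only Sept9 of these 11 passed the threshold, falling from 20.3 ± 2.24 to 10.9 ± 0.546 CPM (-0.89, edgeR adjusted p = 0.0121).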
